A study of Homo sapiens with 8 samples.

Results

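Collagens are the trimeric structural proteins of the extracellular matrix, and 42 collagen chain genes were read on these arrays among 17303 genes named by a single symbol. The members were every gene whose annotated symbol has the form COL, a number, A and a number, a rule that uses no measured value. At the gene level 38 of them had a transcript cluster annotated to that gene alone, of 22011 clusters. At the exon level all 42 had such probesets, 2177 of 287329. COL7A1, COL17A1, COL18A1 and COL27A1 were read only at the exon level. Features annotated to a collagen together with another gene (4 clusters and 4 probesets) were left out.

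The study measured RNA of MDA-MB-231, a human breast cancer line of mesenchymal character that lacks the oestrogen receptor. Cells were stably transduced with lentivirus for an shRNA (short hairpin RNA) against the integrin α3 subunit, called α3 knockdown here, or for a control shRNA, with 2 replicates described as biological in each group. The 4 arrays (Affymetrix Human Exon 1.0 ST) were each summarised per gene and per exon, giving the 8 samples. Every group therefore carries a stable lentiviral hairpin, and each group stands for 1 hairpin, and loss of α3 and any other action of that hairpin cannot be told apart. Values are the authors' PLIER intensities on a linear scale. The number of arrays limits their precision, and p-values measure only the spread between these cultures.

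ITGA3, which encodes the targeted subunit, read 619 and 644 in knockdown and 3480 and 3529 in control arrays, a 5.44-fold difference (log2 difference -2.44 ± 0.073 (SE), adjusted p = 8.70e-05, limma with Benjamini-Hochberg adjustment). All log2 differences are knockdown minus control on the log2(intensity + 16) scale, with a threshold of 0.05 on the adjusted p. Fold differences were computed from them, so for dim values they are smaller than the ratio of the printed means. Median gene-level intensity was 168 and 171 in knockdown and 177 and 186 in control arrays. Of 4 genes listed as high in this line, all were bright. VIM, which encodes vimentin, read 4347 and 4534 in knockdown and 4761 and 5241 in control arrays. EGFR was called higher (log2 difference 0.66, adjusted p = 0.00442) and AXL lower (-0.52, adjusted p = 0.00685), while VIM and CD44 were not called. Of 5 genes listed as low, ESR1 and PGR, the hormone receptor genes, lay below the filter on dim features. ERBB3 passed the filter at 223 and 226 in knockdown and 265 and 277 in control arrays and was not called (adjusted p = 0.112). KRT19, also listed as low, was bright all the same, at 2357 and 2342 in knockdown and 3812 and 4204 in control arrays, and was called lower (log2 difference -0.76, adjusted p = 0.00353). CDH1, the E-cadherin gene, also listed as low, read 177 and 168 in knockdown and 25.4 and 28.8 in control arrays, a mean just below the filter, so it was not tested. Fibroblasts make most collagen in tissue, and 5 of 6 fibroblast markers had a cluster. Their summed intensity was 361 and 357 in knockdown and 155 and 174 in control arrays. PDGFRB passed the test (271 and 262 in knockdown, 74.0 and 80.0 in control arrays, adjusted p = 0.00104), while THY1, FAP, DCN and LUM lay below the filter, between 8.88 and 35.5 on every array. The control values of PDGFRB lie below the filter cut (a mean of 108), so it was tested only through its knockdown values. The endothelial markers PECAM1, CDH5, VWF and TEK all lay below the filter, summing to 223 and 248 in knockdown and 259 and 256 in control arrays. Of the leukocyte markers, PTPRC lay below the filter, and CD14 and CD3E did not pass (adjusted p = 0.873 and 0.326). The part of these markers in the collagen results was not tested, and in bulk RNA fewer cells of a type and less RNA per cell cannot be told apart.

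Each collagen chain contains stretches of Gly-X-Y repeats through which chains wind into a triple helix, and chains combine only in set partnerships. Fibrillar collagens form the banded fibrils of connective tissue. Network collagens form sheets, above all the type IV network of basement membranes. FACIT collagens (fibril-associated collagens with interrupted triple helices) decorate fibrils, and transmembrane collagens are anchored in the cell surface. Carcinoma cells usually make basement membrane and cell-surface collagens themselves, while stromal fibroblasts supply most of the fibrillar chains.

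Of 18 collagen clusters above the filter, 3 rose in knockdown cells (COL4A1, COL5A1 and COL13A1), 2 fell (COL12A1 and COL8A1) and 13 did not pass the test. The filter left out the lower 40% of clusters by mean intensity over all arrays, a cut at 108. The 5 calls are 27.8% of the tested members, where 21.4% of all 13207 tested clusters were called, so the number of calls sets the collagens little apart. The 5 calls became 3 without control replicate 1 or knockdown replicate 1, and 1 without knockdown replicate 2. Rises made up 16.7% of the tested members and 6.0% of all clusters, and falls 11.1% of the members and 15.4% of all clusters. Among all clusters 793 rose and 2033 fell, a split that became 1351 and 1700 after quantile normalization and 1494 and 1529 when array medians were set equal. The same 5 collagens kept their direction and their call under both scalings, and COL6A2 joined them as a rise after quantile normalization (adjusted p = 0.04999). The median log2 difference was 0.07 over the tested members and -0.06 over all tested clusters. The groups did not overlap in 9 of the 18 clusters (7 above, 2 below the controls), against 61.9% of all tested clusters (22.2% above, 39.7% below). The other 20 members with a cluster were dim, from 17.5 to 111 on any array, and their untested log2 differences ran from -0.16 to 0.13. By class, 1 of 4 tested fibrillar clusters was called, 2 of 4 network clusters in opposite directions, 1 of 5 FACIT clusters, 1 of 2 transmembrane clusters and 0 of 3 outside these classes.

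**Figure D1:**
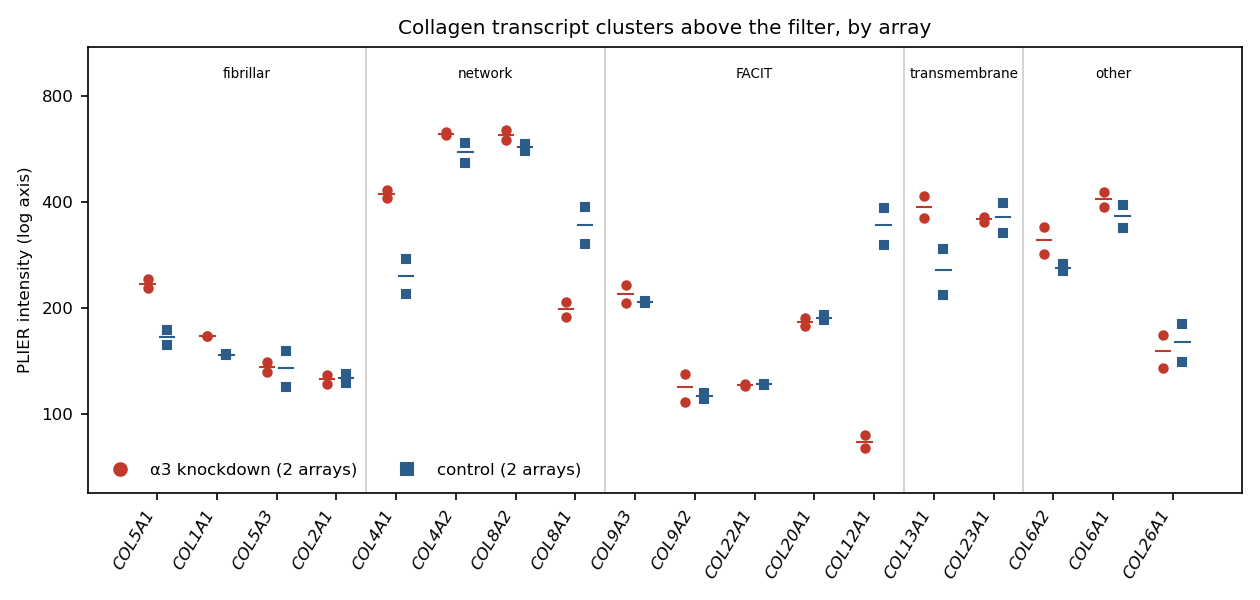
PLIER intensity (log axis) of the 18 collagen transcript clusters above the filter, grouped by class, with 1 point per array and a short line at the mean of each group. COL12A1 shows the widest gap, near 84 in knockdown and 344 in control arrays, COL4A1, COL5A1 and COL13A1 lie above their controls, and COL8A1 lies below.

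The promoters of 4 collagen loci that the results turn on are shown from RefSeq (GRCh38.p14), each running from 250 bases before to 50 bases after an annotated start. They are shown because COL4A1 and COL4A2 share a start region and because COL12A1, COL5A1 and COL13A1 were called. In the first window capitals mark the 126 bases between the starts of COL4A1, on the minus strand, and COL4A2, on the plus strand. In the others capitals mark motif matches on either strand.
COL4A2 with the COL4A1 start, chr13:110307034-110307333, plus strand: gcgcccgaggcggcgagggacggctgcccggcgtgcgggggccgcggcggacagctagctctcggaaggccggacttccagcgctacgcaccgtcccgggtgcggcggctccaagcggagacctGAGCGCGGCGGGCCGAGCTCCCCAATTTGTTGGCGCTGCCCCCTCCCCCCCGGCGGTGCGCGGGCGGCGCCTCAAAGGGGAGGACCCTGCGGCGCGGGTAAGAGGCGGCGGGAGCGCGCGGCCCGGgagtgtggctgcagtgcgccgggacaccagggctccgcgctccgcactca
COL12A1, chr6:75206004-75206303, minus strand: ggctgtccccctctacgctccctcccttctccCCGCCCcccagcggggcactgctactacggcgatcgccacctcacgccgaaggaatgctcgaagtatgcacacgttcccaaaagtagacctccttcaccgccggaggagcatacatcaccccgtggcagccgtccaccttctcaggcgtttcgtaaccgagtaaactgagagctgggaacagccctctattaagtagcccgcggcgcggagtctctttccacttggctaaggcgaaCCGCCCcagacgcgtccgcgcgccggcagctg
COL5A1, chr9:134641553-134641852, plus strand: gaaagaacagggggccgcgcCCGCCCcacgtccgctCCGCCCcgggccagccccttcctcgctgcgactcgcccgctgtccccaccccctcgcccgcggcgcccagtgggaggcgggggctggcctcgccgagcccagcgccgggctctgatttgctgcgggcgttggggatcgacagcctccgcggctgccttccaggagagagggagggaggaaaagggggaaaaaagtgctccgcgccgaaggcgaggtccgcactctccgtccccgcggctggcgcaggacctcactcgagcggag
COL13A1, chr10:69801656-69801955, plus strand: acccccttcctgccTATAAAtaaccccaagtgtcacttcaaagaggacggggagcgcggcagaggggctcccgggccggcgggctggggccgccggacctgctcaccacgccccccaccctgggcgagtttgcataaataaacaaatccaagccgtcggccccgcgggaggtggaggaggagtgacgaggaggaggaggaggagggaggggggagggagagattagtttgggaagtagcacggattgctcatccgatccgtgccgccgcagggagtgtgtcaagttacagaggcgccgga
The motifs searched on both strands were the GC box bound by Sp1 (GGGCGG), the CCAAT box, the TATA box (TATAAA) and the AP-1 element (TGANTCA), and their matches do not overlap in these windows. COL12A1 held 2 GC boxes, COL5A1 2 GC boxes and COL13A1 1 TATA box, while the shared type IV window held 1 GC box and 1 CCAAT box. TGANTCA matched in none of these 4 windows and in 7.71% of all 35116 promoter windows. GGGCGG was present in 45% of all windows, CCAAT in 34.6% and TATAAA in 11.5%. Among the 30 collagen genes with a window, 20 held GGGCGG in at least 1 window and 11 held CCAAT, and the shares over all genes were 48.3% and 39.7%. A match describes letters in the window only. The other type IV genes are also paired head to head, with 418 bases between the starts of COL4A4 and COL4A3 and 379 between those of COL4A6 and COL4A5. COL8A1, COL1A1 and 10 further members had no matching entry.

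Among the fibrillar chains, COL5A1 rose and the others did not pass. COL5A1 encodes the α1 chain of type V collagen, which starts fibrils and limits their width. It measured 228 and 241 in knockdown arrays and 158 and 173 in control arrays, with the groups apart. The means were 235 ± 9.33 and 165 ± 10.8 (SD, n = 2 each), a 1.38-fold difference (log2 difference 0.47 ± 0.108 (SE), adjusted p = 0.0289). Its partner chain gene COL5A3 overlapped between groups, at 141 and 132 in knockdown and 152 and 119 in control arrays (adjusted p = 0.947). COL5A2, the other partner, lay below the filter at 67.0 and 61.1 in knockdown and 66.3 and 62.1 in control arrays. COL1A1, the major chain of type I collagen, read 167 in both knockdown arrays and 147 and 148 in the controls. The groups were apart, yet the log2 difference of 0.16 ± 0.107 (SE) did not pass (adjusted p = 0.344). COL2A1, the cartilage fibril chain, overlapped between groups at 122 and 129.7 in knockdown and 123 and 130.4 in control arrays (adjusted p = 0.963). COL1A2, COL3A1, COL11A1, COL11A2 and COL24A1 were dim, between 30.9 and 100.2 on every array. The COL5A1 call was lost without the filter (adjusted p = 0.0530) and without control replicate 1 (0.0713), knockdown replicate 1 (0.117) or knockdown replicate 2 (0.192).

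Network collagens moved in both directions. COL4A1, which encodes the α1 chain of basement membrane type IV collagen, measured 411 and 433 in knockdown arrays and 219 and 275 in control arrays. Both knockdown values lay above both controls, with means of 422 ± 15.4 and 247 ± 39.4 (SD, n = 2 each). The difference was 1.67-fold (log2 difference 0.74 ± 0.125 (SE), adjusted p = 0.0118). COL4A2 encodes the chain that joins α1(IV) chains in the same trimer and starts 126 bases away on the opposite strand, in the window printed above. It read 629.7 and 618 in knockdown and 516 and 589 in control arrays, apart but without passing (log2 difference 0.17 ± 0.094 (SE), adjusted p = 0.242). The log2 ratio of COL4A1 to COL4A2 within an array was -0.60 and -0.50 in knockdown and -1.18 and -1.06 in control arrays. It was 0.57 higher in knockdown, in both arrays, and with 2 arrays a group the exact two-sided permutation p was 0.333, the smallest this design allows. The tissue-restricted type IV chain genes COL4A3, COL4A4, COL4A5 and COL4A6 were below the filter.

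Type VIII collagen, a short-chain network collagen made by endothelial and mesenchymal cells, was read through both of its chain genes. COL8A1 measured 209 and 189 in knockdown arrays and 303 and 387 in control arrays, so both knockdown arrays were lower. The means were 199 ± 14 and 345 ± 59.6 (SD, n = 2 each), a 1.67-fold fall (log2 difference -0.74 ± 0.138 (SE), adjusted p = 0.0159). COL8A2 read 599 and 640.2 in knockdown and 584 and 558 in control arrays, with a log2 difference of 0.11 ± 0.084 (SE) that did not pass (adjusted p = 0.381). COL10A1, the hypertrophic cartilage chain, was dim at 31.6 and 29.4 in knockdown and 29.7 and 25.2 in control arrays. Without knockdown replicate 2 both network calls were lost (adjusted p = 0.0652 for COL4A1 and 0.0794 for COL8A1).

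The FACIT class held the largest difference among the tested collagens. COL12A1 encodes type XII collagen, a long fibril-associated chain that bridges fibrils and other matrix proteins. It measured 87.3 and 80.1 in knockdown arrays and 303 and 386 in control arrays, 83.7 ± 5.03 and 344 ± 58.3 on average (SD, n = 2 each). Both knockdown values lie below the filter cut of 108, so the cluster was tested only through its control values. The fall was 3.59-fold (log2 difference -1.84 ± 0.143 (SE), adjusted p = 0.00139) and kept its call when each of the 4 arrays was left out in turn (adjusted p = 0.00307 to 0.00964). No other FACIT gene passed. COL9A3, a cartilage chain, read 207 and 232 in knockdown and 209 and 207 in control arrays, and COL20A1 178 and 187 in knockdown and 191 and 185 in control arrays. COL9A2 and COL22A1 were close to the filter, and the adjusted p of these 4 genes lay between 0.708 and 0.974. COL9A1, COL14A1, COL16A1, COL19A1 and COL21A1 were below it. The median log2 difference of the 5 tested FACIT genes was -0.01, and 0.08 after either scaling.

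Of the transmembrane collagens, COL13A1 was called higher. It encodes type XIII collagen, a cell-surface collagen of adhesion sites and of the neuromuscular junction. It measured 359.5 and 415 in knockdown arrays and 218 and 295 in control arrays. The groups were apart, with means of 387 ± 39.5 and 257 ± 54.6 (SD, n = 2 each) and a 1.49-fold difference (log2 difference 0.58 ± 0.157 (SE), adjusted p = 0.0473). This call was the least stable of the 5. It was lost without the filter (adjusted p = 0.102), without the intensity trend (0.0560) and without knockdown replicate 1 (0.0823) or 2 (0.213). Without control replicate 1 the log2 difference was 0.37 (adjusted p = 0.100). COL23A1, another membrane-anchored chain, read 363 and 352 in knockdown and 397 and 327 in control arrays, overlapping (adjusted p = 0.958). COL25A1, made mainly in neurons, was dim at 72.5 and 69.4 in knockdown and 59.0 and 74.9 in control arrays. COL17A1, the hemidesmosome collagen, had 62 probesets, and only 18 were bright enough to be tested. Of these 18, 0 passed in limma and 1 had an unadjusted p under 0.05. The median intensity over the tested probesets alone was 174 and 188 in knockdown and 199.7 and 185 in control arrays.

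**Figure D2:**
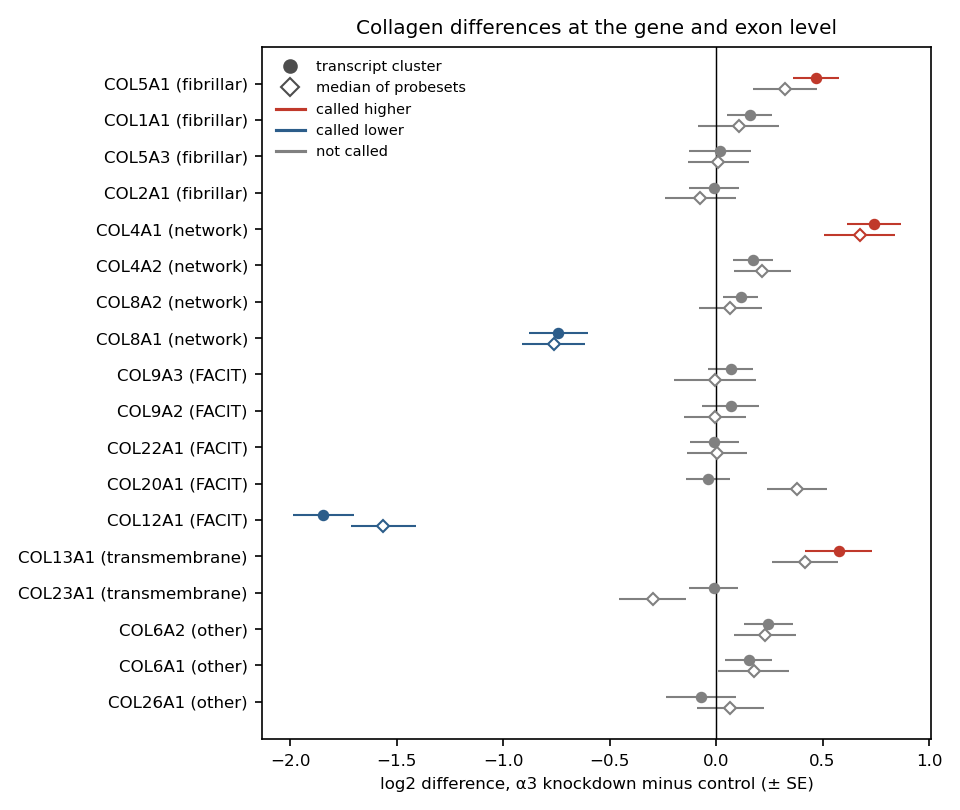
Log2 difference, knockdown minus control, with its SE for the 18 tested collagen genes, from the transcript cluster (filled circles) and from the median of the gene's probesets (open diamonds). Filled red points mark the rises of COL4A1, COL5A1 and COL13A1 and filled blue points the falls of COL12A1 and COL8A1. COL20A1 and COL23A1 are the genes whose summaries lie farthest apart.

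Outside these classes, the beaded-filament chain genes of type VI collagen, a microfibril that surrounds many cells, were moderately bright. COL6A2 read 285 and 341 in knockdown and 254 and 267 in control arrays (log2 difference 0.24 ± 0.116 (SE), adjusted p = 0.186), apart but not called. COL6A1 read 388 and 427 in knockdown and 338 and 393 in control arrays, overlapping (adjusted p = 0.371). COL26A1 overlapped too, at 168 and 135 in knockdown and 180.4 and 141 in control arrays (adjusted p = 0.803). COL6A3, COL6A5 and COL15A1 were dim. In this group limma called 0 of 3 tested clusters, and 0 had an unadjusted p under 0.05. The anchoring-fibril gene COL7A1, the multiplexin gene COL18A1, whose product releases endostatin, and the fibrillar gene COL27A1 were read by probesets. Median probeset intensity of COL18A1 was 294 and 284 in knockdown and 259.9 and 265 in control arrays, apart but not called (log2 difference 0.13 ± 0.134 (SE), adjusted p = 0.5854). Those of COL7A1 (adjusted p = 0.858) and COL27A1 (adjusted p = 0.919) overlapped between groups.

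At the exon level 926 collagen probesets passed the filter, and 16 were called higher and 45 lower in knockdown. That is 6.59% of them, where 4.65% of all 172397 tested probesets were called (1.33% higher, 3.33% lower). The split of 16 higher and 45 lower became 27 and 45 after quantile normalization, 30 and 45 after centring, 0 and 35 without the intensity trend, and 2 and 37 without control replicate 1. COL12A1 supplied 44 of the 45 falls and COL4A1 11 of the 16 rises. Without COL12A1, 17 of 874 collagen probesets were called (1.95%). Probesets of a gene share their arrays and are not replicates, and those named by number below were picked after their values were seen. Median log2 differences of the probesets were 0.15 for network, 0.02 for fibrillar, -0.13 for FACIT and 0.18 for transmembrane collagens, beside -0.05 over all tested probesets. Genes with many probesets weigh most in these medians. COL12A1 held 52 of 200 tested FACIT probesets and COL13A1 32 of 78 transmembrane ones. COL4A1 and COL4A2 held 47 and 49 of 158 network ones.

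The fall of COL12A1 was read by most of its tested probesets, whose positions along the gene were not used here. Of 74 probesets 52 were tested, and in 48 both knockdown arrays lay below both controls, where this held for 31.4% of all tested probesets. The median intensity of the 52 was 92.0 and 94.9 in knockdown arrays, below the exon-level filter cut of 99.4. Many of them thus passed the filter only through their control values, so these counts are no test against the share over all probesets. Over all tested probesets the groups were apart in 50.8%, in either direction. The 44 called probesets had log2 differences of -2.97 to -1.06. The brightest of them (2961181) read 674 and 574 in knockdown and 2783 and 3124 in control arrays (log2 difference -2.22 ± 0.145 (SE), adjusted p = 0.000175). The largest fall was in probeset 2961281, with 27.3 and 30.1 in knockdown and 302 and 370.2 in control arrays. Its knockdown values lie below the exon-level filter cut of 99.4, which it passed only through its control values. In 4 probesets the groups overlapped. Probeset 2961183 read 252 and 328 in knockdown and 311 and 252 in control arrays, and probeset 2961189 130.2 and 171 in knockdown and 159 and 161 in control arrays. Probesets 2961220 and 2961280 overlapped as well. When each probeset was set against the gene's other tested probesets, averaged, limma called 0 of 925 collagen probesets (93 had an unadjusted p under 0.05), where 0.0586% of all 155406 were called (0.0367% higher, 0.0219% lower). The smallest adjusted p in it belonged to 2961189 (0.0883), 2961281 (0.0943) and 2961183 (0.0999).

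**Figure D3:**
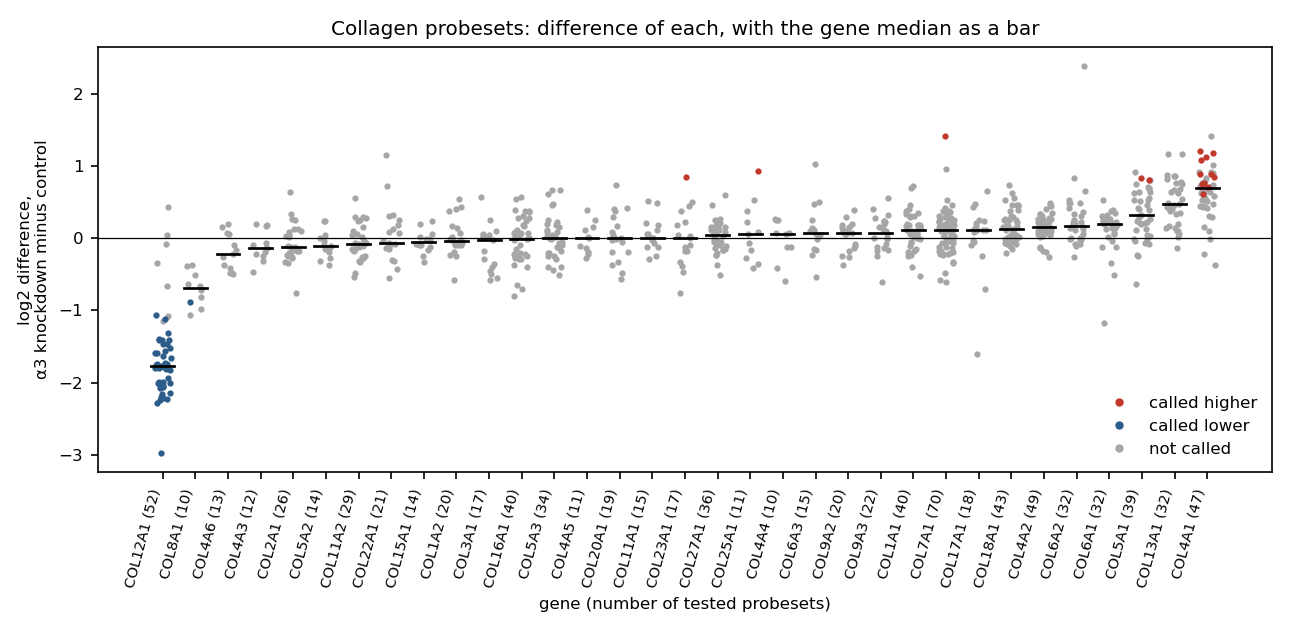
Log2 difference of every tested probeset of the collagen genes with at least 10 of them, ordered by the gene's median (black bar), with the number tested beside each name. The COL12A1 median lies at -1.76 and the COL4A1 median at 0.70, and the 44 blue COL12A1 points are called lower.

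Probesets of the other called genes leaned the same way as their clusters, mostly without passing one by one. In COL4A1 11 of 47 tested probesets were called higher and 0 lower, and 38 had both knockdown arrays above both controls, against 19.4% of all tested probesets. The most significant (3525317) read 1078 and 1171 in knockdown and 409 and 580 in control arrays (log2 difference 1.18 ± 0.190 (SE), adjusted p = 0.0140). In COL4A2 0 of 49 passed in limma and 0 had an unadjusted p under 0.05, while 20 had both knockdown arrays above both controls and 44 had a positive difference. The median difference was 0.70 over the probesets of COL4A1 and 0.15 over those of COL4A2. In COL8A1 1 of 10 was called lower, 9 lay below both controls, and all 10 differences were negative (-1.06 to -0.37). Its brightest probeset (2633440) read 1307 and 1179 in knockdown and 2281 and 2332 in control arrays (adjusted p = 0.00882). In COL13A1 limma called 0 of 32, although 15 had an unadjusted p under 0.05 and 21 lay above both controls. COL5A1 had 2 of 39 called higher, 3193505 at 800.2 and 783 in knockdown and 442 and 431 in control arrays and 3193519 at 838 and 740.0 in knockdown and 431 and 454 in control arrays, and 17 lay above both controls.

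**Figure D4:**
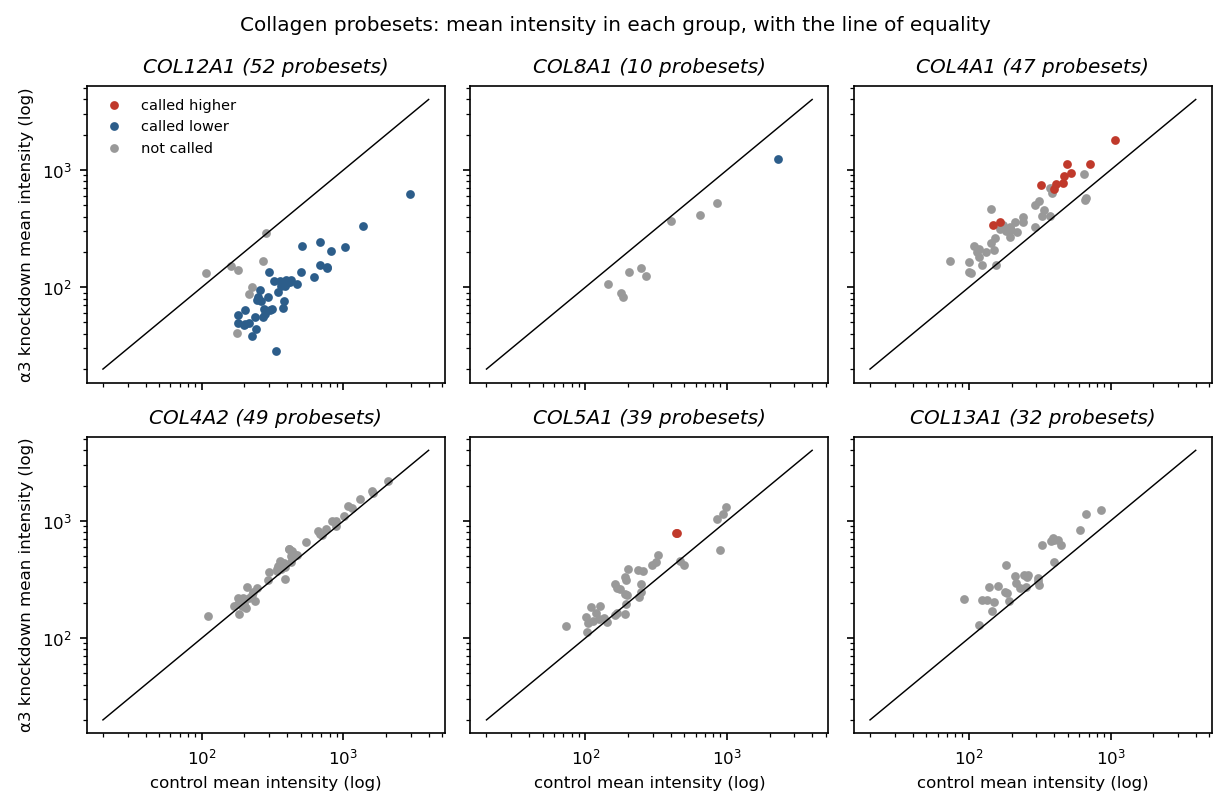
Mean intensity of each tested probeset in knockdown (vertical) against control arrays (horizontal), both on log axes, for 6 collagen genes, with the line of equality. COL8A1 points lie below the line, as do 50 of the 52 COL12A1 points, COL4A1 and COL13A1 points mostly above it, and the 49 COL4A2 points lie close to it.

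A per-gene value from the exon level, the median log2 intensity of a gene's tested probesets, called 3 of 40 collagens (7.50%), against 13.2% of 12209 genes (3.64% higher, 9.52% lower). COL12A1 fell (92.0 and 94.9 in knockdown, 287 and 330.0 in control arrays, log2 difference -1.56 ± 0.153 (SE), adjusted p = 0.000887). Its knockdown medians lie below the exon-level filter cut of 99.4, so many of the probesets behind this value were kept only through their control values. COL8A1 fell (147 and 142 in knockdown, 244 and 269.7 in control arrays, adjusted p = 0.0139), and COL4A1 rose (330.3 and 367 in knockdown, 185 and 243 in control arrays, adjusted p = 0.0327). COL13A1 (adjusted p = 0.116) and COL5A1 (0.199) did not pass, at log2 differences of 0.42 and 0.33. Without knockdown replicate 1 or 2 the 3 calls became 1. These values come from the same arrays as the clusters and add no replicate. For COL20A1 this summary gave 0.38 ± 0.142 (SE) (adjusted p = 0.118) and the cluster -0.04, while the median of its probesets' own differences was 0.00.

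Genes that make, link, bind or cut collagen changed in both directions. They were listed with earlier results of these data known, so their share of calls is no test against all clusters. Of 60 such genes listed, 53 had a cluster and 33 were tested, with 6 higher, 6 lower and 21 not passing, 36.4% called beside 21.4% of all clusters. Their median log2 difference was -0.09, and the 12 calls became 8 without knockdown replicate 1 and 4 without knockdown replicate 2. In the group of hydroxylation, folding and secretion genes 4 of 11 rose and 1 fell. PLOD2, the lysyl hydroxylase of collagen telopeptides, measured 2897 in both knockdown arrays and 1516 and 1541 in the controls (log2 difference 0.92, adjusted p = 0.00138). P4HA2, a prolyl hydroxylase subunit, read 717 and 760.5 in knockdown and 476 and 495 in control arrays (0.59, adjusted p = 0.00696).

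Among the cross-linking enzymes 1 of 5 rose and 1 fell. LOX, the lysyl oxidase, read 449.5 and 432 in knockdown and 1209 and 1093 in control arrays (log2 difference -1.35, adjusted p = 0.000837). Its relative LOXL4 read 439.5 and 450.4 in knockdown and 269 and 281 in control arrays (0.66, adjusted p = 0.00603). Of 4 tested receptors, ITGA2, the α2 subunit of the collagen-binding integrin α2β1, rose (2042 and 1888 in knockdown, 1505 and 1559 in control arrays, log2 difference 0.36, adjusted p = 0.0261). DDR1, the epithelial collagen receptor kinase, fell (145 and 149 in knockdown, 205 and 192 in control arrays, log2 difference -0.40, adjusted p = 0.0466). The DDR1 call was lost when any 1 array was left out (adjusted p = 0.0715 to 0.224), when dim clusters were kept (0.0727), and under quantile normalization (0.0875) or centring (0.0947), and that of ITGA2 without control replicate 1 (0.0647), knockdown replicate 1 (0.164) or 2 (0.0837) or the filter (0.0518).

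Of 3 tested collagenases and gelatinases, 2 fell. MMP1, the interstitial collagenase, read 784 and 804 in knockdown and 3767 and 4584 in control arrays (log2 difference -2.36, adjusted p = 0.000231). MMP14, a membrane-anchored collagenase, read 1298 and 1245 in knockdown and 1722 and 1958 in control arrays (-0.52, adjusted p = 0.0122). Of 5 tested propeptide and fibril assembly genes limma called 0, and 1 (BMP1) had an unadjusted p under 0.05. Of 5 tested transcription factors SOX9, an activator of cartilage collagen genes, fell (231 and 241 in knockdown, 603 and 665 in control arrays, log2 difference -1.36, adjusted p = 0.00100), while COL2A1 read as given above. Without knockdown replicate 2 the calls of P4HA2 (adjusted p = 0.0604), LOXL4 (0.0530) and MMP14 (0.0677) were lost.

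**Figure D5:**
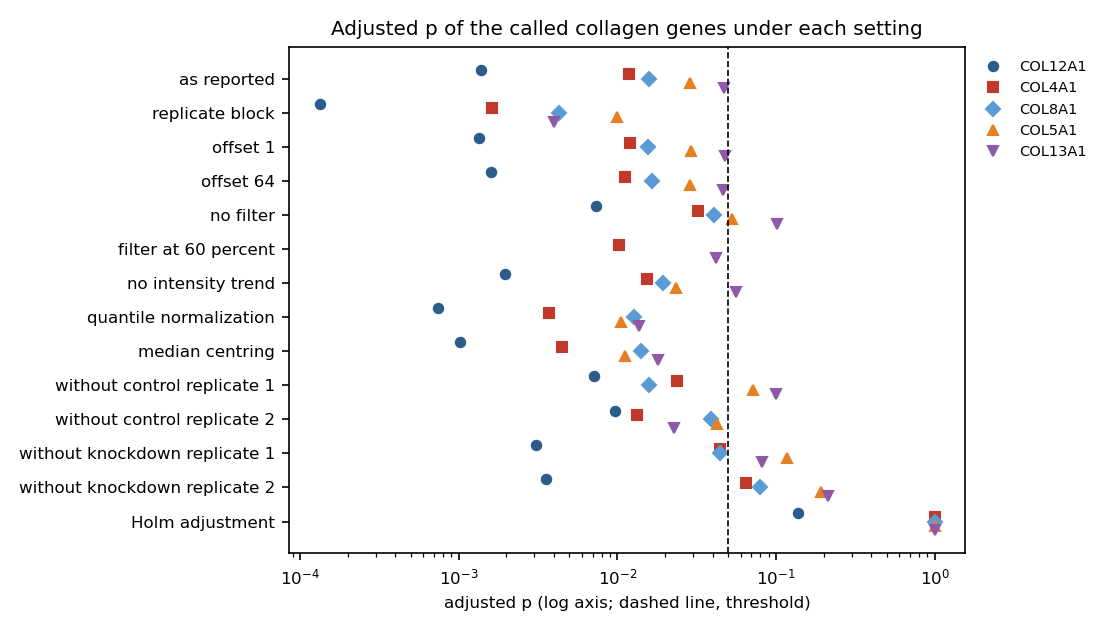
Adjusted p (log axis, threshold dashed) of the 5 called collagen genes as reported and under each other processing setting. Where tested, COL12A1 stays below the threshold except under the Holm adjustment (0.138). COL12A1, COL8A1 and COL5A1 were not tested under the filter at 60 percent. COL13A1 and COL5A1 cross the threshold without knockdown replicate 1 or 2.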

How the data were processed

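RNA of 4 cultures was hybridised to Affymetrix Human Exon 1.0 ST arrays and summarised by the authors at 2 levels, giving 8 samples. Per the labels and the submitters' processing notes, the deposited intensity values were made with the PLIER algorithm in Affymetrix Expression Console for core probesets and were left unlogged. The sources used here give no software version, and no background or between-array normalization step. Groups and replicate numbers came from the sample titles.

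Features were named through the platform annotation, updated with NCBI RefSeq symbols (14432 clusters and 261273 probesets had 1 symbol). Of 42 members, 30 matched a RefSeq promoter. Intensities were taken as log2(value + 16), leaving out the lower 40% of features by mean over all arrays. Knockdown and control were compared over all features of a level with limma 3.58.1 in R 4.3.3 (two-sided eBayes with trend, only the group in the model, leaving 2 residual degrees of freedom), and p-values were adjusted by Benjamini-Hochberg at 0.05. Exon medians and the within-gene probeset test used genes with at least 3 tested probesets. A partner gene with several clusters was represented by its brightest. The gene-level, exon-level, exon-median and within-gene fits were run on simulated data, and the other steps were not. Plots used matplotlib 3.10.9.

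Every member was named, and probesets by number after their values were seen. Partner genes named were up to 2 called per group with the smallest p. Members and lists were chosen with earlier results of these data known. Alternatives covered other offsets, filters, variance models, scalings, a replicate block, Holm adjustment and leaving out each array.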

Additional observations from a re-analysis of the deposited data

How the results depend on the processing

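The 5 gene-level collagen calls became 3 without the filter and 2 (2 higher, 0 lower) with the stricter filter of 60%. Under that filter only 6 members were tested, and COL12A1, COL8A1 and COL5A1 were not among them. The 5 calls became 0 under Holm adjustment, where limma called 57 of all clusters (5 members had an unadjusted p under 0.05). Leaving out each array gave 1 to 5. The 61 probeset calls (16 higher, 45 lower) became 141 with the replicate block (76 and 65), 2 without the filter (both lower), 32 with the stricter filter (17 and 15) and 35 without the intensity trend (0 and 35), and 39 to 54 without 1 array. The 3 exon-median calls became 5 with the stricter filter and 1 to 2 without 1 array. The within-gene test, with 0 calls, gave 9 with the replicate block, 1 with the stricter filter and 1 to 5 without 1 array. The 12 partner calls became 4 to 11 without 1 array. Shares over all features moved too. Of all tested probesets 16.9% were called with the replicate block and 0.0567% without the filter, beside 4.65% as reported. The stricter filter gave 6.74% of them and dropping the intensity trend 1.1%. Tested collagen probesets numbered 926, 2177 without the filter and 342 with the stricter one. Clusters were called at 9.07% without the filter and 27.2% with the stricter one. The within-gene test called 0.31% with the block. The cause of the changed counts was not tested, beyond the fewer features or arrays of some settings. The replicate numbers are shared by the groups without a stated pairing. Same-numbered arrays deviated together (r = 0.29 over clusters, 0.30 over probesets). The block left the gene-level collagen count at 5 of 18 (27.8%), while calls over all clusters went from 2826 (21.4%) to 4102 (31.1%). Over all clusters 2826 calls became 840 to 2417 without 1 array. A group reduced to 1 array borrows its spread from the other group. None of the called collagens, ITGA3 and the called partner genes named above changed direction under the settings in which each was tested. The marker genes were not run under them.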

Other observations

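In a few collagen genes without a called cluster only 1 tested probeset was called, and these were chosen after their values were seen. Of all tested probesets 4.65% were called. In COL7A1, the anchoring-fibril gene, 1 of 70 tested probesets was called, 2673359 at 456 and 846 in knockdown and 240.4 and 205 in control arrays (adjusted p = 0.0271). COL23A1 had 1 of 17, 2889554 at 712 and 718 in knockdown and 398 and 382 in control arrays (adjusted p = 0.0255). COL25A1 had 1 of 11, 2781497 at 1697 and 1080 in knockdown and 705 and 696 in control arrays (adjusted p = 0.0396), although its cluster was dim. None of these passed the test against the other probesets of the gene (adjusted p = 0.276, 0.139 and 0.376).

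Some wide differences came from probesets whose replicates lay far apart. Probeset 3924461 of COL6A2 read 428 and 109 in knockdown and 112 and 0.102 in control arrays, a log2 difference of 2.38 that did not pass (adjusted p = 0.164). Probeset 3305119 of COL17A1 read 0.167 and 192 in knockdown and 234 and 109 in control arrays (log2 difference -1.61, adjusted p = 0.381).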
